A study of Mus musculus with 29 samples.

Results

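MicroRNAs (miRNAs) in the serum of mice with muscle wasting from disuse were compared with those in the serum of control mice of the same age. The comparison rests on 10 of the 29 small RNA libraries of the study, 5 labelled disuse serum and 5 labelled young serum. Of the 695 miRNAs with a value in every library, 647 had at least 1 count in these 10 libraries, and 165 had enough counts to be tested. All mice in both groups were C57BL/6 and 6 months old per the labels. Disuse mice carry the label of a disuse-induced atrophy model and young mice the label control. No genotype, transgene or drug is labelled for either group, and the sources used here do not say how disuse was imposed, on which limb or for how long. The other libraries are tibialis anterior muscle of young, old and disuse mice and serum of 24-month-old mice. The labels number the samples but do not say that each came from a separate mouse. Each p-value therefore reflects only the variation among the libraries used, and some of that variation may be technical. The main fit used these 10 and 4 of old serum, the library-level tests these 10 alone and the comparison with muscle all 29.

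Serum miRNAs are cell-free RNAs, carried in vesicles and in protein and lipoprotein complexes, that were released by many tissues. Red cells, platelets, leukocytes, endothelium and liver are the main known contributors, while muscle adds a small set of its own miRNAs (myomiRs) such as miR-1a, miR-133a and miR-206. Mature miRNAs guide Argonaute proteins to messenger RNAs through the seed, bases 2 to 8 from the 5′ end, and miRNAs that share a seed form a family with overlapping targets. The comparison asks whether the wasting of muscle by disuse is accompanied by a change of miRNA levels in the circulation.

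No miRNA was found to differ between disuse and young serum beyond the spread between libraries. With edgeR's quasi-likelihood test and Benjamini-Hochberg adjustment, 0 of 165 tested miRNAs (0%) passed an adjusted p under 0.05, and the smallest adjusted p was 0.358. At an unadjusted p under 0.05 there were 20 (12.1%), against 8.25 that 5% of 165 would give. Of these 20, 16 were lower and 4 were higher in disuse serum. The 16 lower ones included 4 of the 9 tested let-7 and miR-98 guide strands and all 4 tested miR-181 guide strands, and the 4 higher ones were miR-214-3p, miR-223-3p, miR-93-3p and miR-145a-5p. DESeq2 passed 0 miRNAs with 15 under an unadjusted p of 0.05, and limma-voom passed 0 with 14. Among the 10 libraries, young serum 1 and young serum 4 had the lowest correlations with the other serum libraries. Without both, a choice made after seeing the data, 4 of 166 had an unadjusted p under 0.05 (edgeR), of which 2 were lower. In that fit 0 passed. It holds fewer young libraries and so detects less, and its fall in number cannot be assigned to these 2. Leaving out a single disuse library gave 11 to 22 under that p. With the 10 compared libraries alone in the fit, 4 of 12 were lower and 8 higher, 0 of 148 passed and the smallest adjusted p was 0.108 (edgeR's quasi-likelihood test).

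The sequences below are those of the families and single miRNAs on which the account turns, with the seed in capitals. They are the RefSeq mature sequences of the GRCm38.p6 build. The let-7 guide strands and miR-98 share the seed GAGGUAG and differ in a few bases elsewhere. Those shown are the 4 with an unadjusted p under 0.05 and let-7b, which had the smallest difference among the family.
let-7f-5p: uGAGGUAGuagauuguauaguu
miR-98-5p: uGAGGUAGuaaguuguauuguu
let-7a-5p: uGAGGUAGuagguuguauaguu
let-7i-5p: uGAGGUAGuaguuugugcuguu
let-7b-5p: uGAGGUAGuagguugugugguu

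The miR-181 family shares the seed ACAUUCA, and all 4 members are shown because each had a lower mean in disuse serum.
miR-181a-5p: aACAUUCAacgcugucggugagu
miR-181b-5p: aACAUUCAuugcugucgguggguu
miR-181c-5p: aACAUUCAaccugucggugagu
miR-181d-5p: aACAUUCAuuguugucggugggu

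miR-214-3p and miR-223-3p are shown as the 2 miRNAs with the smallest p among those higher in disuse serum. miR-204-5p and miR-211-5p, which share the seed UCCCUUU, are shown because their counts were highest in young serum 1.
miR-214-3p: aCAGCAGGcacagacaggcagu
miR-223-3p: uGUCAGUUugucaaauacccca
miR-204-5p: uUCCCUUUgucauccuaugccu
miR-211-5p: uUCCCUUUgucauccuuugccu

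In GRCm38.p6, the mature let-7f-5p is encoded by both Mirlet7f-1 at chr13:48537889-48537910 on the minus strand, beside let-7a-1 and let-7d, and Mirlet7f-2 at chrX:151912353-151912374 on the plus strand, beside miR-98. miR-181a-5p comes from Mir181a-1 at chr1:137966468-137966490 and Mir181a-2 at chr2:38852741-38852763, both on the plus strand and each beside a copy of miR-181b. miR-181c and miR-181d are neighbours on the minus strand of chromosome 8. miR-214-3p lies at chr1:162223438-162223459 on the plus strand, in the same cluster as miR-199a, and miR-223-3p at chrX:96242884-96242905 on the plus strand. Counts of mature miRNAs do not tell copies at different loci apart, and the sources used here do not give how reads matching several let-7 members were assigned.

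The libraries held 128216 to 309133 counts in disuse serum (median 174378) and 68813 to 290818 in young serum (median 133658). Between 318 and 425 miRNAs were detected per disuse library and between 276 and 397 per young library. A count of 0 allows a level of up to 9.70 to 43.6 CPM (counts scaled to a common library size, here before the TMM scaling described next), counting error only. The mean correlation of a library's log2 levels with the other serum libraries was 0.960 to 0.969 in disuse serum. It was 0.924 for young serum 1, 0.937 for young serum 4 and 0.953 to 0.965 for the other 3 young libraries. In old serum it was 0.938 to 0.961, so young serum 4 was close to the lowest old library. The TMM scaling factor of edgeR was highest in young serum 1 (1.37) and lowest in young serum 4 (0.706) among the 10. In old serum it was 0.728 to 1.16. CPM below are scaled by these factors.

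Beyond the tested miRNAs, detection was sparse. Of all 647 miRNAs counted in these libraries, tested ones included, 195 had counts in all 10 libraries and 151 in only 1. Counts were limited to disuse serum for 99 miRNAs and to young serum for 96, and none of these appeared in all 5 libraries of its group. Those found in the most libraries, among them let-7f-2-3p and miR-455-5p in 4 disuse libraries each (named after their values were seen), had at most 3 counts in any library. The 165 tested miRNAs held 99.4% to 99.8% of the counts of each of these libraries, and the 482 others were not tested.

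The abundance order was shared by the groups: the correlation of mean log2 levels between disuse and young serum was 0.986 across the 165 miRNAs, which are not independent replicates. Levels are relative to the other miRNAs of a library, so less release of a miRNA, faster loss of it and more of the others cannot be told apart. The most abundant was miR-486-5p, made in red cell precursors and in striated muscle, at 154488, 259946, 343648, 195833 and 262748 CPM in disuse serum 1 to 5 and at 134743, 258607, 165584, 494129 and 270812 CPM in young serum 1 to 5. Its range in disuse serum lay within that in young serum. It differed by a log2 fold change (disuse minus young, as throughout) of -0.12 ± 0.37 (SE; 95% interval -0.89 to 0.65; adjusted p = 0.965). Its near copy miR-3107-5p, with which it may share reads, differed by -0.09 ± 0.36. The share of all counts taken by miR-486-5p was 23.95% ± 3.86 (SD, n = 5) in disuse and 24.3% ± 6.49 (SD, n = 5) in young serum (exact permutation test, two-sided, p = 0.905).

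Next in abundance were miR-10b-5p and miR-10a-5p, encoded in the HOX gene clusters. miR-10b-5p had 79944 to 156598 CPM in disuse serum and 28381 to 157161 CPM in young serum, a difference of 0.41 ± 0.37, and miR-10a-5p differed by 0.41 ± 0.40. These 2 differences were 0.73 and 0.74 without young serum 5, and 0.0034 and 0.07 without young serum 1 and 4. The remaining miRNAs among the 10 most abundant, miR-191-5p, miR-22-3p, miR-30d-5p, miR-146a-5p and miR-92a-3p, differed by -0.15 to -0.06, with miR-181a-5p, described below, the exception. Their adjusted p was 0.964 to 0.968, and their small differences changed sign with some settings and left-out libraries.

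The let-7 family, guide strands that repress growth and cell cycle genes and are among the most widely expressed miRNAs, had a lower mean in disuse serum throughout. All 9 tested members had a log2 fold change below 0, with a median of -0.63, against a median of -0.09 over all 165 tested miRNAs, of which 111 were below 0 and 54 above. None of the 9 passed, and 4 had an unadjusted p under 0.05. let-7f-5p had 723, 568, 647, 582 and 738 CPM in disuse serum 1 to 5 and 2297, 560, 982, 1665 and 954 CPM in young serum 1 to 5. Young serum 1 and 4 were highest and young serum 2 was below all disuse libraries. Its difference was -0.99 ± 0.33 (95% interval -1.70 to -0.29; adjusted p = 0.358, edgeR's quasi-likelihood test), -0.56 without young serum 1 and -0.33 without young serum 1 and 4.

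let-7a-5p had 347, 373, 410, 388 and 389 CPM in disuse serum and 1162, 432, 427, 903 and 485 CPM in young serum. The groups did not overlap, although young serum 2 and 3 were close to the disuse libraries. Its difference was -0.85 ± 0.30 (95% interval -1.49 to -0.21), -0.46 without young serum 1 and -0.22 without young serum 1 and 4. miR-98-5p had 83.1, 110, 108, 120 and 109 CPM in disuse serum and 336, 117, 145, 137 and 268 CPM in young serum. Here young serum 1 and 5 were the high libraries, and the difference was -0.89 ± 0.31, or -0.46 without young serum 1 and -0.63 without young serum 1 and 4.

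Of the other let-7 members, let-7i-5p differed by -0.63 ± 0.25, with 1567 to 2052 CPM in disuse and 1623 to 4165 CPM in young serum. let-7d-5p differed by -0.59 ± 0.30, let-7e-5p by -0.85 ± 0.56, let-7c-5p by -0.38 ± 0.27, let-7g-5p by -0.28 ± 0.31 and let-7b-5p by -0.17 ± 0.24. let-7k had 4 counts in disuse and 1 in young serum in all and was not tested. The summed level of the listed strands was 6007 to 9452 CPM in disuse serum and 8469 to 17711 CPM in young serum, so the ranges overlapped. With young serum 1 left out, 2 of the 9 were above 0 and the median was -0.33, while that over all tested miRNAs was 0.05. With young serum 4 left out as well, all 9 were below 0 with a median of -0.22. With DESeq2's factors, upper-quartile factors or library totals in edgeR, and with DESeq2 or limma-voom, all 9 were below 0 as well, with medians of -0.66 to -0.54. let-7j, a name outside the list, differed by -0.09 ± 0.28.

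**Figure D1:**
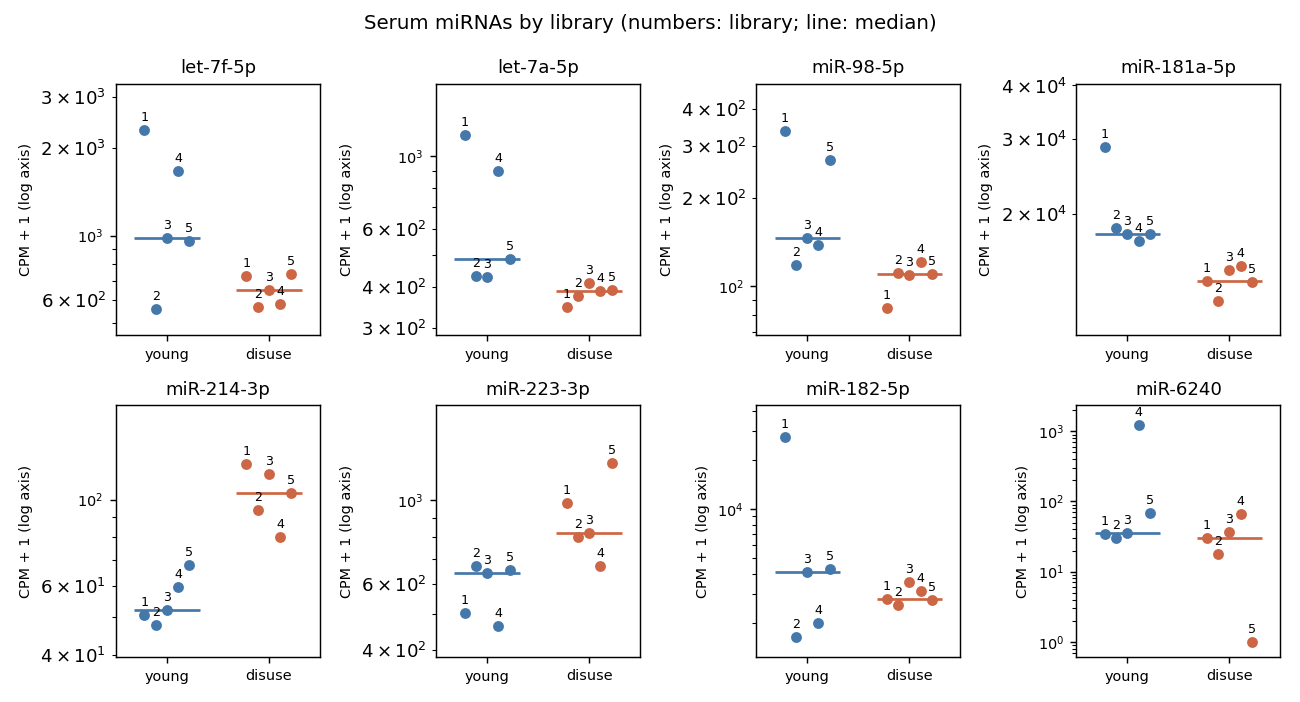
Level of 8 miRNAs in each serum library. The y axis is CPM + 1 on a log scale, scaled by TMM factors, the x axis the group; each numbered point is a library and each line the group median. let-7f-5p, let-7a-5p, miR-98-5p and miR-181a-5p are highest in young serum 1, miR-182-5p reaches 27836 CPM in young serum 1 only and miR-6240 reaches 1216 CPM in young serum 4 only, whereas the 5 disuse libraries of miR-214-3p, 79.2 to 122 CPM, all lie above the 5 young libraries.

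The miR-181 family, known from lymphocytes, vascular and neural tissue, was also lower in mean. All 4 tested guide strands were below 0 with a median of -0.62, all 4 had an unadjusted p under 0.05, and none passed. miR-181a-5p, among the most abundant serum miRNAs, had 13961, 12480, 14816, 15091 and 13849 CPM in disuse serum and 28706, 18553, 17980, 17324 and 17933 CPM in young serum. Every disuse library was below every young one. Groups that do not overlap were seen for 4 of the 165 miRNAs (2.42%), 2 higher (1.21%) and 2 lower (1.21%) in disuse serum, and the lower ones were let-7a-5p and miR-181a-5p. The difference of miR-181a-5p was -0.52 ± 0.20 (95% interval -0.93 to -0.10; adjusted p = 0.358), -0.25 without young serum 1 and -0.37 without young serum 1 and 4.

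miR-181b-5p had 763 to 1202 CPM in disuse serum and 1182 to 2909 CPM in young serum, a difference of -0.63 ± 0.28 that was -0.19 without young serum 1. miR-181c-5p differed by -0.62 ± 0.28 and miR-181d-5p by -0.89 ± 0.36. Without young serum 1 and 4 these 3 differences were -0.32, -0.36 and -0.24. The passenger strands miR-181a-1-3p, miR-181a-2-3p and miR-181c-3p had 12 to 22 counts per group in all and were not tested.

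Shared seeds were examined for the 135 of 165 tested miRNAs (81.8%) found in the RefSeq table. Of 10 seeds held by at least 3 of them, those of let-7, miR-181 and the miR-200b group had the lowest medians. The seed AAUACUG belongs to the epithelial miR-200b-3p, miR-200c-3p and miR-429-3p, which differed by -0.80 ± 0.43, -0.23 ± 0.33 and -0.64 ± 0.30, a median of -0.64. At the other end, GUAAACA, the seed of the miR-30 family, had a median of -0.01 over the 3 members found there, miR-30a-5p, miR-30c-5p and miR-30e-5p. The GC content of the mature miRNA and the log2 fold change had a correlation of 0.11 across these 135 miRNAs, a description with no test, since neighbours and family members are not independent.

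Higher means in disuse serum were fewer. miR-214-3p, a miRNA of fibroblasts and other mesenchymal cells, had 122, 93.2, 115, 79.2 and 103 CPM in disuse serum and 49.6, 46.7, 51.2, 58.6 and 66.9 CPM in young serum. The groups did not overlap. Its mean was 103 ± 17.1 CPM (SD, n = 5) against 54.6 ± 8.17 CPM (SD, n = 5), and its difference was 0.92 ± 0.32 (95% interval 0.24 to 1.60; adjusted p = 0.358, edgeR's quasi-likelihood test). It was 0.94 without young serum 1 and 4 and 0.84 to 1.02 with any single library left out. The strands of its cluster neighbour, miR-199a-3p and miR-199a-5p, differed by -0.16 ± 0.35 and -0.36 ± 0.33. Low counts limit its precision: the young libraries held 9, 8, 6, 12 and 4 counts and the disuse libraries 25, 11, 16, 29 and 18.

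miR-223-3p, a miRNA of neutrophils, monocytes and platelets, had 982, 796, 820, 669 and 1258 CPM in disuse serum and 501, 671, 640, 464 and 652 CPM in young serum. Only disuse serum 4 fell within the young range. The difference was 0.63 ± 0.23 (95% interval 0.14 to 1.12), and 0.47 without young serum 1 and 4. The other tested leukocyte miRNAs stood near 0, with miR-142-5p at 0.01 ± 0.25, miR-142-3p at 0.00 ± 0.29, miR-150-5p at -0.18 ± 0.27 and miR-342-3p at 0.25 ± 0.40.

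miR-145a-5p, a smooth muscle miRNA, had 213 to 547 CPM in disuse serum against 225 to 256 CPM in young serum, a difference of 0.68 ± 0.32, while its opposite strand miR-145a-3p differed by 0.38 ± 0.31. The following 2 were named after their values were seen. miR-93-3p had 43.7 to 129 CPM against 25.6 to 70.0 CPM, a difference of 0.89 ± 0.38. miR-532-5p had 230, 195, 223, 175 and 183 CPM in disuse serum and 171, 163, 93.9, 137 and 134 CPM in young serum. Its groups did not overlap either, although disuse serum 4 and young serum 1 differed little, and the difference was 0.50 ± 0.26 with an adjusted p of 0.443.

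**Figure D2:**
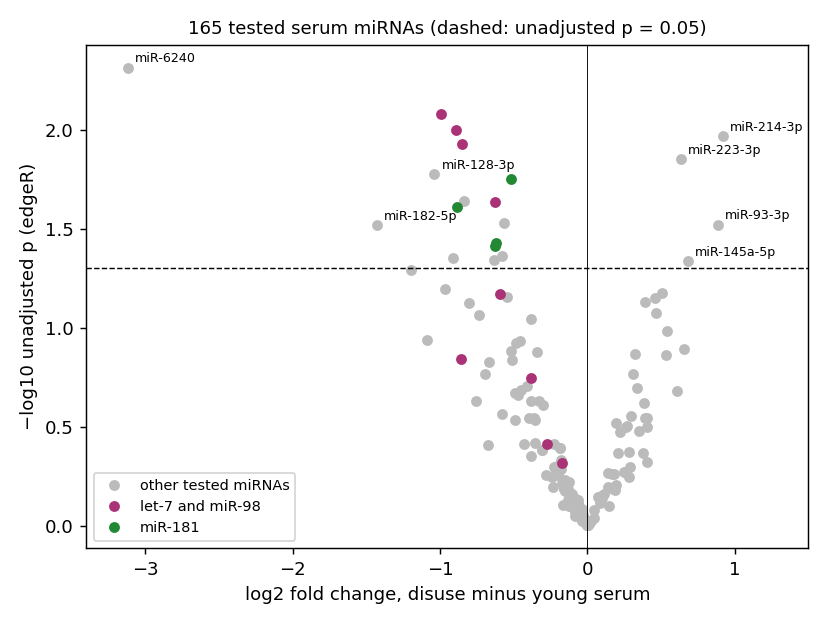
The 165 tested miRNAs by log2 fold change (x axis, disuse minus young serum) and by minus log10 of the unadjusted p of edgeR's quasi-likelihood test (y axis). Each point is a miRNA and the dashed line marks the unadjusted threshold. Of the 20 miRNAs above the line 16 lie left of 0, among them 4 of the let-7 and miR-98 strands and all 4 miR-181 strands, and none passed after adjustment.

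A log2 fold change of at least 1 in size was seen for 5 miRNAs, all lower in disuse serum, and for 4 of them a single young library was far above the others. The fifth, miR-5121, named after its values were seen, had 0 to 50.3 CPM in disuse and 0 to 85.4 CPM in young serum and differed by -1.09 ± 0.66. miR-6240 led with -3.12 ± 0.97. It had 29.3, 16.9, 36.0, 65.5 and 0 CPM in disuse serum and 33.1, 29.2, 34.1, 1216 and 66.9 CPM in young serum, so 249 of its 268 young counts were in young serum 4. Without young serum 1 and 4 the difference was -0.20. miR-128-3p, a neural miRNA that other tissues also express, had 266 to 474 CPM in disuse serum and 529, 519, 341, 1836 and 351 CPM in young serum. Its difference was -1.04 ± 0.39, and -0.21 without young serum 1 and 4. miR-151-5p, named after its values were seen, was also highest in young serum 4, at 2305 CPM against 577 to 769 CPM in the other young libraries and 309 to 939 CPM in disuse serum. Its difference of -0.91 became -0.29 without young serum 4.

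Young serum 1 was the highest library for other miRNAs. miR-182-5p, known from the retina and other sensory tissue, had 2805, 2559, 3575, 3116 and 2762 CPM in disuse serum and 27836, 1633, 4072, 1997 and 4282 CPM in young serum. Its difference was -1.43 ± 0.61, and 0.10 without young serum 1. miR-183-5p, from the same cluster on the minus strand of chromosome 6, had 16096 CPM in young serum 1, 1855 to 5922 CPM in the other young libraries and 2209 to 3834 CPM in disuse serum, and its difference of -0.96 became -0.09 without that library.

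miR-211-5p had 683 CPM in young serum 1 and 63.5 to 154 CPM in the other 9 libraries, and its difference of -1.19 ± 0.57 became 0.14 without that library. Its seed partner miR-204-5p, abundant in pigment epithelium and choroid plexus, had 396, 491, 446, 598 and 618 CPM in disuse serum and 1581, 805, 726, 547 and 903 CPM in young serum. Its difference was -0.84 ± 0.34, -0.43 without young serum 1 and -0.66 without young serum 1 and 4.

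Among untested miRNAs, miR-124-3p, specific to neurons, had 152 of its 153 young counts in young serum 1 and 2 counts in all disuse libraries. miR-9-5p had 12 young counts, all in young serum 1, and 0 in disuse serum. Not all untested neural members were higher in young serum: miR-138-5p had 26 disuse and 16 young counts and miR-219a-5p 2 and 2. miR-96-5p had 42 of 52 young counts in young serum 1 and 17 in disuse serum. miR-96-5p, miR-182-5p, miR-183-5p and miR-211-5p were chosen after their values were seen. The part of young serum 1 in the let-7 and miR-181 differences cannot be read off alone, since leaving it out also changes the scaling. In the fit without it the median over all tested miRNAs was 0.05, against -0.09 with it. The medians of the 2 families were -0.33 and -0.30 in that fit, against -0.63 and -0.62 with it.

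**Figure D3:**
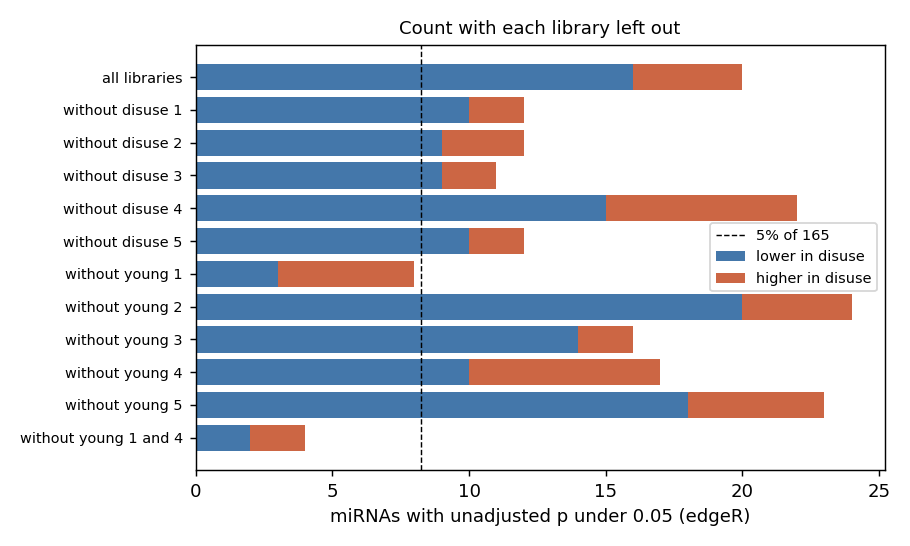
Number of miRNAs with an unadjusted p under 0.05 (x axis, edgeR) with all libraries and with each library left out (y axis), split into lower and higher in disuse serum; the dashed line is 5% of 165, or 8.25. The count of 20 with all libraries drops to 8, of which 3 are lower, without young serum 1 and to 4 without young serum 1 and 4.

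The balance of lower and higher miRNAs moved with these libraries and with the scaling. With all libraries 16 of 20 under an unadjusted p of 0.05 were lower, without young serum 1 it was 3 of 8 and without young serum 4 it was 10 of 17. With any of the other 3 young libraries left out there were 16 to 24, of which 14 to 20 were lower. Leaving out a disuse library gave 11 to 22. With DESeq2's size factors in edgeR 11 of 18 were lower, with upper-quartile factors 11 of 17, and with the 10 libraries alone 4 of 12. In the last fit the median log2 fold change over all tested miRNAs was 0.03 in place of -0.09, a shift of over 0.1.

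Young libraries were more variable than disuse libraries. The SD of log2(CPM + 1) was higher in young than in disuse serum for 124 of 165 miRNAs, with a median of 0.544 against 0.354. Without young serum 1 and 4 the young median was 0.425 and the young SD was the higher for 101 of 165. Young serum 1 was the highest young library for 55 miRNAs and young serum 4 for 43, and they were the lowest for 37 and 33. Among disuse libraries, disuse serum 3 was the highest for 42 and disuse serum 4 for 39. Depth differed too, with a lowest total of 68813 counts in young and 128216 in disuse serum. Neither the difference in spread nor the part of depth in it was tested.

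**Figure D4:**
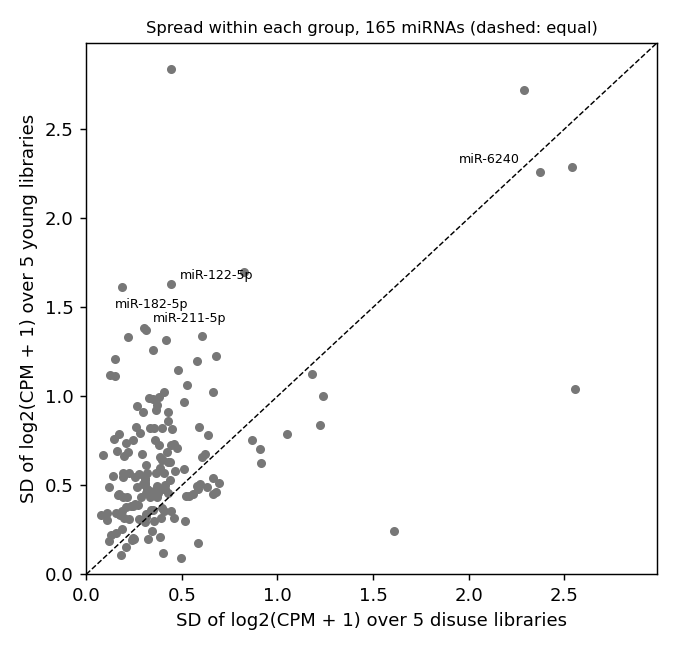
Spread within each group. Each point is 1 of the 165 tested miRNAs, with the SD of log2(CPM + 1) over the 5 disuse libraries on the x axis and over the 5 young libraries on the y axis; the dashed line marks equal spread. Most points, 124 of 165, lie above the line, among them miR-182-5p, miR-211-5p and miR-122-5p.

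Among miRNAs specific to muscle, only the miR-133a strands had enough counts to be tested, and they did not differ detectably. miR-133a-3p, a main miRNA of striated muscle, had 3025, 907, 1280, 2873 and 3539 CPM in disuse serum and 3415, 2543, 2604, 869 and 2141 CPM in young serum. The ranges nearly coincided, and the difference was 0.01 ± 0.37 (95% interval -0.76 to 0.78; adjusted p = 0.996, edgeR's quasi-likelihood test). A 2-fold change in either direction lies outside that interval. miR-133a-5p differed by 0.15 ± 0.56.

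Of 21 listed myomiR names, 5 were tested, 2 above 0 and 3 below, with a median of -0.09, but 3 of the 5 are miR-486 and miR-3107 strands that red cells also carry. The other muscle-specific members were too low to test. miR-133b-3p had 27 counts in disuse and 8 in young serum, with 12 of the 27 in disuse serum 4, the deepest library. miR-206-3p had 13 and 5 counts and miR-1a-3p had 12 and 12. miR-208a-3p and miR-208b-3p had 1 count each, in disuse serum, miR-499-5p 1 count, in young serum, and miR-1b-3p 0 in both.

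Red cell miRNAs had lower means in small amounts. All 10 tested members of the erythrocyte list were below 0 with a median of -0.13, close to the -0.09 of all miRNAs. miR-451a, the most red cell specific of them, had 8972 to 11803 CPM in disuse serum and 8404 to 18046 CPM in young serum, with young serum 1 highest, and differed by -0.19 ± 0.22. The sign depended on the young libraries: without young serum 1, miR-451a stood at 0.14, and without young serum 1 and 4, 7 of the 10 were above 0 with a median of 0.06. Other scalings put 1 or 2 of the 10 above 0. miR-15b-5p was the only member with an unadjusted p under 0.05, at -0.57 ± 0.24, and miR-144-3p differed by -0.67 ± 0.44, which was -1.01 without disuse serum 4 and -0.14 without young serum 4.

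miR-451a was also set against miR-23a-3p within each library. The log2 ratio of these counts, a measure of red cell miRNA in serum, was 1.69 ± 0.41 (SD, n = 5) in disuse and 2.31 ± 0.84 (SD, n = 5) in young serum (exact permutation test, two-sided, p = 0.190, or 0.619 adjusted over the 4 library-level measures). Single libraries spanned 1.33 to 2.38 in disuse serum and 1.54 to 3.57 in young serum, with young serum 1 highest. With miR-23b-3p as the reference the difference was 0.32 in place of -0.62, and without young serum 1 and 4 it was -0.07. The number of miRNAs expected at a common depth of 68813 counts was 286 ± 11.5 (SD, n = 5) in disuse and 290 ± 18.5 (SD, n = 5) in young serum (exact permutation p = 0.714). Log2 total counts were 17.5 ± 0.46 and 17.1 ± 0.79 (exact permutation p = 0.310). The smallest p that this design can give is 0.00794.

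Liver miRNAs were below 0 for all 5 tested members, with a median of -0.43, and none had an unadjusted p under 0.05. With DESeq2's or upper-quartile factors 4 of the 5 were below 0. miR-122-5p, the main hepatocyte miRNA, had 1060, 1237, 1640, 1333 and 720 CPM in disuse serum and 149, 1499, 2382, 1172 and 2141 CPM in young serum. Here young serum 1 was the lowest of all libraries, and the difference was -0.28 ± 0.47. With a single library left out it ranged from -0.48 (without young serum 1) to -0.02 (without young serum 3). It was -0.74 without young serum 1 and 4 and 0.16 with limma-voom. miR-192-5p, of liver and gut, differed by -0.05 ± 0.25, miR-194-5p by -0.49 ± 0.30 and miR-148a-3p by -0.69 ± 0.49.

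Endothelial and platelet miRNAs stood near the median of all miRNAs. miR-126a-3p and miR-126a-5p differed by 0.14 ± 0.23 and 0.09 ± 0.25. Of 7 tested platelet miRNAs 3 were above 0 and 4 below, with a median of -0.04, and without young serum 1 they were 6 and 1, with a median of 0.21. Inflammation-associated miRNAs had 2 above and 5 below 0 with a median of -0.07. miR-146a-5p, induced by inflammatory signalling, had 12966 to 30078 CPM in disuse serum and 9266 to 26029 CPM in young serum, a difference of -0.07 ± 0.29. miR-21a-5p differed by -0.06 ± 0.24. In the fibroblast and smooth muscle list 3 of 7 were above 0 with a median of -0.07, the value of miR-143-3p (SE 0.33). With young serum 1 left out 6 of 7 were above 0 with a median of 0.34. In that fit the median over all tested miRNAs was itself higher, at 0.05.

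Of the other families, the miR-23-27-24 clusters had 5 of 6 members above 0, with a median of 0.23 and no member under an unadjusted p of 0.05. With a single library left out the list median was 0.07 to 0.30. miR-23a-3p differed by 0.46 ± 0.24 and miR-24-2-5p by 0.47 ± 0.26. The difference of miR-23a-3p was 0.36 to 0.59 with a single library left out and 0.17 without young serum 1 and 4. All 4 tested strands found in the cluster on chromosome 8 were above 0, but miR-24-3p is also encoded on chromosome 13. The paralogue of miR-23a-3p, miR-23b-3p, differed by -0.46 ± 0.28. The miR-30 list, which holds strands from both arms, had 4 above and 3 below 0 with a median of 0.20, led by miR-30a-3p at 0.34 ± 0.25. All 7 were above 0 with DESeq2's factors in edgeR, with upper-quartile factors, with DESeq2 and with the 10 libraries alone.

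The miR-99, miR-100 and miR-125 list had 0 above and 7 below 0 with a median of -0.14, though 2 were above 0 with DESeq2's or upper-quartile factors. Both miR-29 members were below 0 (median -0.09), of which 1 was above 0 with those factors. Below 0 under all scalings were both tested miR-26 members (-0.36) and both members of the Dlk1-Dio3 imprinted cluster (-0.53). These medians were -0.16 and -0.12 without young serum 1, where 1 of the 2 cluster members was above 0. In that cluster miR-127-3p had 534 to 1439 CPM in disuse and 1178 to 2038 CPM in young serum, with young serum 1 highest, and differed by -0.58 ± 0.27, or -0.31 without that library. The miR-15 and miR-16 list had 1 above and 5 below 0 (median -0.10), and the miR-17-92 list also had 1 above and 5 below 0 (-0.07). With DESeq2's factors in edgeR and with DESeq2, each of these 2 lists had 3 above and 3 below 0.

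The miR-148 and miR-152 list had 1 above and 3 below 0 (-0.19), miR-221 and miR-222 had 1 each (-0.23), and the epithelium and pancreas list had 3 above and 6 below 0 (-0.18). miRNAs often used as serum references had 2 above and 5 below 0 with a median of -0.06, from miR-103-3p at -0.38 ± 0.21 to miR-423-3p at 0.31 ± 0.22. Both tested neural miRNAs were below 0, miR-128-3p as above and miR-132-3p at -0.36 ± 0.40. The counts of untested neural members went both ways, as given above for miR-124-3p, miR-9-5p and miR-138-5p. No list had a member that passed.

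**Figure D5:**
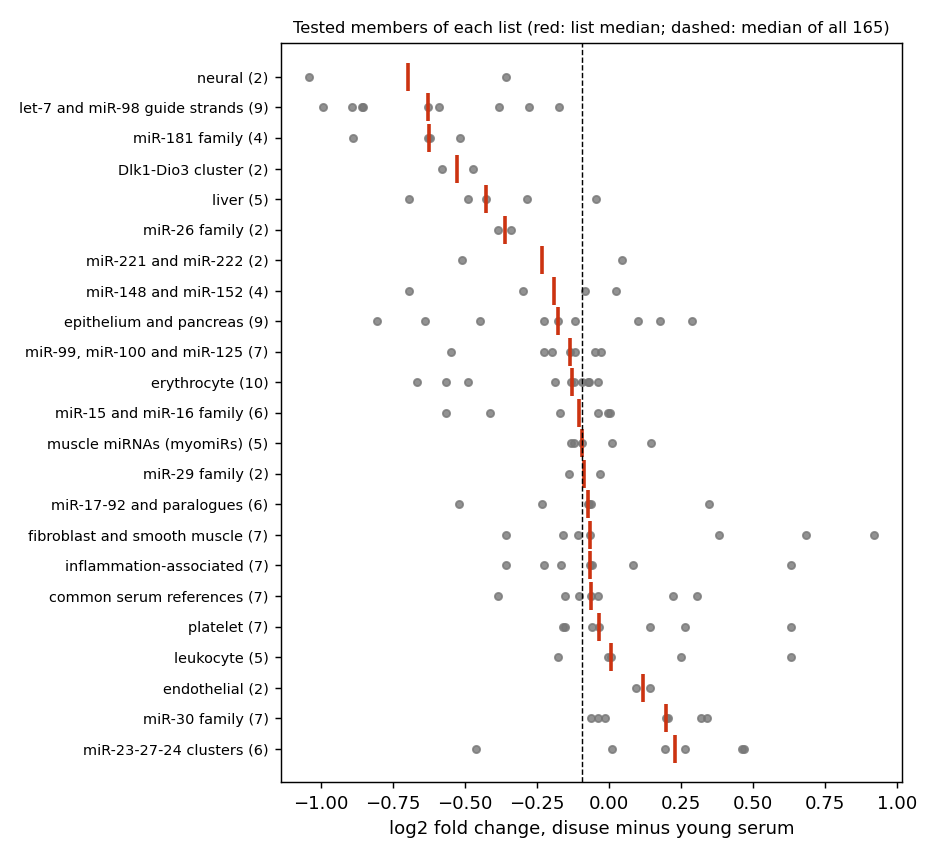
Log2 fold change (x axis, disuse minus young serum) of the tested members of each list (y axis, number tested in parentheses). Grey points are miRNAs, red bars list medians and the dashed line the median of all 165 tested miRNAs, -0.09. The let-7 and miR-98 strands and the miR-181 family lie wholly left of 0 with medians of -0.63 and -0.62.

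The precision of the comparison sets how far the absence of passing miRNAs reaches. The median SE was 0.313 on the log2 scale and the median width of the 95% interval was 1.32. For 86 of the 165 miRNAs the interval excluded both a 2-fold rise and a 2-fold fall, among them the abundant miR-486-5p, miR-16-5p, miR-92a-3p and miR-30d-5p. For the others the interval did not exclude a 2-fold change in both directions.

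Old and disuse serum were each set against the same 5 young libraries, so their differences from young serum share that reference and are given only side by side. let-7f-5p differed by -0.99 ± 0.33 in disuse and -1.27 ± 0.37 in old serum, miR-98-5p by -0.89 ± 0.31 and -1.40 ± 0.36, and miR-181a-5p by -0.52 ± 0.20 and -0.85 ± 0.21. miR-127-3p differed by -0.58 ± 0.27 in disuse and -1.78 ± 0.31 in old serum. miR-146a-5p differed by -0.07 ± 0.29 in disuse and 1.21 ± 0.30 in old serum, and miR-192-5p by -0.05 ± 0.25 and 1.10 ± 0.26. miR-214-3p differed by 0.92 ± 0.32 in disuse and 0.45 ± 0.36 in old serum. Differences between old and disuse serum were not tested here.

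The change with disuse in serum was also set against that in the tibialis anterior, a muscle of the lower leg, by an interaction over all 29 libraries. With edgeR's quasi-likelihood test 0 of 241 miRNAs passed (0%), with a smallest adjusted p of 0.275 and 24 at an unadjusted p under 0.05 against 12.05 that 5% would give. DESeq2 passed 0 with 25 under an unadjusted p of 0.05. The smallest p belonged to miR-205-5p, a miRNA of stratified epithelium, at 0.28 ± 0.34 in serum and 3.17 ± 0.78 in muscle. Its level in muscle was 8.29 ± 6.50 CPM (SD, n = 5) in disuse and 1.04 ± 1.00 CPM (SD, n = 5) in young libraries. It passed when disuse muscle 2 was left out and when no low-count filter was used. Of the 165 miRNAs tested in serum, 88 had the same sign in both sources.

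In this fit, in which levels are scaled over all libraries, miR-214-3p differed by 1.10 ± 0.29 in serum and 0.59 ± 0.21 in muscle, and the difference between the sources was 0.50 ± 0.36 (adjusted p = 0.759, edgeR's quasi-likelihood test). let-7a-5p differed by -0.69 ± 0.26 in serum and -0.06 ± 0.24 in muscle, a difference of -0.64 ± 0.35 (adjusted p = 0.646). miR-181a-5p differed by -0.35 ± 0.20 and 0.01 ± 0.20 (adjusted p = 0.759). miR-10a-5p and miR-10b-5p were among the smallest p, at 0.56 ± 0.37 and 0.57 ± 0.39 in serum and -0.87 ± 0.37 and -0.92 ± 0.39 in muscle (adjusted p = 0.275 for both). No effect was shown to differ between serum and muscle.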

How the data were processed

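Small RNA was sequenced in 10 serum libraries (5 disuse, 5 young). Per the labels' protocols, RNA from 300 µl of serum was used at 10 ng per library, with at most 15 PCR cycles and gel selection at 145 to 160 bp. Bowtie and mm10 are named per the submitters' processing notes. Neither the annotation nor the handling of multiply matching reads is given in those sources. Whole-number counts per mature miRNA were deposited by the authors without normalization. Of 1183 miRNAs, 488 have an incomplete entry and were left out; lacking those cells, the last deposited column was recorded as unit other, though its values here are counts. All columns matched a sample. edgeR 4.0.16 (R 4.3.3; glmQLFit, glmQLFTest, TMM, filterByExpr, Benjamini-Hochberg) was fitted to all 14 serum libraries, sharing 1 estimate of the spread, and the interaction to 29. The test was checked on simulated counts that had the same spread for every miRNA and group and no outlying library. SE is the log2 fold change divided by the square root of F. Library measures were compared by exact permutation tests (pseudocount 0.5 for the ratio). DESeq2 1.42.0, limma 3.58.1, other scalings, filters, a replicate block and left-out libraries were alternatives. Named miRNAs are those that pass or the 10 with the smallest p, the 10 most abundant, list members and interaction calls; others are marked. Members and lists were chosen with earlier results of these data known. Library correlations used log2(CPM + 10). All 20 within-group pairs differed beyond counting noise (chi-square per degree of freedom at least 13.4).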

Additional observations from a re-analysis of the deposited data

Results flagged for a closer look

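For 12 of 86 groups of 5 values examined (39 named miRNAs and 4 library measures in each group), the highest or lowest library lay far from the other 4. Chance alone gives such a library in about 1 in 20 groups if the values are independent and normally distributed, which CPM values need not be. Also, miR-182-5p, miR-183-5p, miR-211-5p and miR-151-5p, which account for 5 of the 12, were named after their values were seen. Others, such as miR-6240, miR-128-3p and miR-181a-5p, were named for a small p in these data. The count is therefore not set against chance. Of the 12, 7 were in young serum 1, 3 in young serum 4 and 2 in disuse serum 4.

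In young serum 1 the level was far above the other young libraries for miR-182-5p (27836 CPM against 1633 to 4282), miR-183-5p (16096 against 1855 to 5922), miR-211-5p (683 against 63.5 to 154), miR-181a-5p (28706 against 17324 to 18553), miR-181b-5p (2909 against 1182 to 1330) and miR-127-3p (2038 against 1178 to 1405). It was far below them for miR-146a-5p (9266 CPM against 21267 to 26029). In young serum 4 the level was far above for miR-6240 (1216 CPM against 29.2 to 66.9), miR-128-3p (1836 against 341 to 529) and miR-151-5p (2305 against 577 to 769). In disuse serum 4 it was far above for miR-151-5p (939 CPM against 309 to 489) and miR-144-3p (197 against 79.1 to 103).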

How the results depend on the processing

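The count of 0 passing miRNAs between disuse and young serum held under every alternative run except without the low-count filter, where 5 of 695 passed, 1 higher and 4 lower. Of those, miR-182-5p (-1.21) and miR-6240 (-2.89) were tested in the report, and miR-129-5p, miR-124-3p and miR-217-5p had 23 of 30, 152 of 153 and 23 of 23 counts of their higher group in a single library. These 5 were named after their values were seen. Without the filter 5 miRNAs passed in the interaction too (miR-205-5p, miR-129-5p, miR-19b-3p, miR-10a-5p and miR-10b-5p), and with a library left out 0 to 1 did (miR-205-5p without disuse muscle 2). Leaving out both young serum 1 and 4 was chosen after seeing the data. Disuse and young serum libraries of the same replicate number had deviations with correlations of -0.0166 to 0.160, with 2 of 5 best with their own number. So few values cannot show whether libraries of the same number were paired. With the replicate block 0 passed in both fits.

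Differences near 0 changed sign. For the miR-451a ratio with miR-23b-3p as the reference the difference was 0.32. The difference in miRNAs expected at a common depth was -7.34 to 3.55 with a library left out, and that in the share of miR-486-5p was -1.88 to 2.24 percentage points. Across 39 named miRNAs and up to 20 alternatives, 718 values kept sign and call, 52 changed sign and 2 gained a call. Without young serum 1 and 4 the values were 0.073 for miR-486-5p, 0.085 for miR-3107-5p, 0.042 for miR-191-5p, 0.051 for miR-451a and -0.056 for miR-133a-3p. Without the filter they were 0.049 for miR-486-5p, 0.078 for miR-3107-5p, 0.025 for miR-191-5p, 0.055 for miR-22-3p, 0.11 for miR-30d-5p, 0.11 for miR-146a-5p and 0.099 for miR-92a-3p. With the 10 libraries alone they were 0.023 for miR-3107-5p, 0.0024 for miR-22-3p, 0.053 for miR-30d-5p, 0.041 for miR-146a-5p and 0.042 for miR-92a-3p. With limma-voom they were 0.025 for miR-3107-5p, 0.070 for miR-191-5p and 0.16 for miR-122-5p. With library totals they were 0.0037 for miR-3107-5p, 0.023 for miR-146a-5p and -0.039 for miR-133a-3p. The replicate block gave 0.012 for miR-191-5p and -0.064 for miR-133a-3p. miR-30d-5p was 0.0055 with DESeq2's factors in edgeR, 0.0057 with DESeq2 and 0.0027 with upper-quartile factors, and miR-146a-5p 0.0015 with the last. The causes were not tested.

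With a library left out, miR-486-5p ranged from -0.28 to 0.24, miR-3107-5p from -0.25 to 0.26, miR-191-5p from -0.27 to 0.28, miR-22-3p from -0.22 to 0.14, miR-30d-5p from -0.093 to 0.0041, miR-146a-5p from -0.25 to 0.060, miR-92a-3p from -0.15 to 0.062, miR-182-5p from -1.67 to 0.099, miR-211-5p from -1.45 to 0.14, miR-451a from -0.27 to 0.14, miR-133a-3p from -0.19 to 0.31 and miR-133a-5p from -0.25 to 0.57. Depth limits miRNAs under the 9.70 to 43.6 CPM, before TMM scaling, that 3 counts give.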
